A study of Rattus norvegicus with 4 samples.

Results

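Expression of 10 genes of the NF-kB pathway was examined in rat oligodendrocyte precursor cells (OPCs) after the microRNA miR-125a-3p had been raised. They were 4 Rel-family subunits (Nfkb1, Nfkb2, Rela, Relb), the inhibitory genes Nfkbia and Tnfaip3, the outputs Tnfaip2, Icam1 and Vcam1, and the upstream sensor Nod1. They were selected on the log2 differences between the mimic and control groups seen in earlier work on these arrays, so those differences are given as a description. Probes were found by matching the RefSeq accession of each probe to current symbols. Of the 10 genes, 8 had a probe matched in this way and all 8 were among the 23155 features tested. Relb and Tnfaip3 were matched to 0 probes and have no expression value here. The array may still hold probes for them, since the matching named 46.3% of probes and the gene names in the scanner output were not searched.

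The OPCs came from the cortex of rats at postnatal day 2, and bFGF and PDGF kept them dividing for 3 days. They were transfected by means of Lipofectamine RNAiMax with 50 nM of a miR-125a-3p mimic (group miR-125a-3p, 2 samples) or of a negative control RNA (group miR-neg, 2 samples), and both groups were taken after 48 h. The samples are described as independent, but separate animals or cultures are not named, so every error below measures the spread between these samples, which may be technical. Each sample was measured on 1 single-colour Agilent array, and the comparison asks which transcripts differ when this microRNA is raised. The sample labels do not fully match this account, since they name the cells oligodendrocytes and give their maturation as 2 days in vitro. Strain, sex and pooling of animals are not given in the sources used here.

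NF-kB is a family of transcription factors held in the cytoplasm by IkB proteins. Signals from cytokine receptors or from sensors of bacteria activate the IkB kinase complex, IkB is degraded, and dimers of p65 (encoded by Rela) with p50 (made from Nfkb1) enter the nucleus, while a slower branch runs through RelB and p52 (made from Nfkb2). Among the genes that the dimers switch on are their own inhibitors Nfkbia and Tnfaip3, which end the response, and adhesion molecules such as Icam1 and Vcam1, by which glia and vessel cells bind leukocytes.

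The transfected microRNA is shown first because its seed, bases 2 to 8, is the part that mainly guides pairing with transcripts. The mature rat sequence in RefSeq (GRCr8, chr1:67350727-67350748, plus strand) carries its seed in capitals, and 0 of the other mature sequences among 724 in that table share it.
rno-miR-125a-3p: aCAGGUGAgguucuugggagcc
Pairing with transcripts of the members and the level of the microRNA itself were not analysed here.

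Promoters from RefSeq (GRCr8), running from 250 bases before to 50 after the start that the table uses, are shown because the members differ in whether they hold letters of the kappaB motif, to which NF-kB dimers bind. A narrow kappaB motif, GGGNNTTTCC on either strand, was found in the promoters of Nfkb1, Nfkb2, Nfkbia and Tnfaip3, 4 of the 9 members listed there, against 1.53% of all 33469 promoters. Relb is the member without an entry. The degenerate kappaB consensus, which overlaps the narrow motif, was found in 6 of the 9, adding Vcam1 and Nod1, against 7.51% of promoters. A wide form, GGGNNNNNCC, was found in all 9 but also in 47.3% of promoters. A match is a description of letters and not a measured binding site.

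The stretches below hold the narrow motif in subunit and feedback genes, with matches to the narrow or degenerate motif in capitals and each sequence given 5′ to 3′ along the gene. They lie at chr2:226805425-226805484 (minus strand) for Nfkb1, chr1:255108329-255108388 (plus strand) for Nfkb2 and chr1:15544006-15544065 (minus strand) for Tnfaip3. Tnfaip3 holds a pair of matches, on the strand opposite to the gene.
Nfkb1: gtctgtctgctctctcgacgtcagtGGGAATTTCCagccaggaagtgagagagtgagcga
Nfkb2: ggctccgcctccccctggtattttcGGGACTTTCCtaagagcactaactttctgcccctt
Tnfaip3: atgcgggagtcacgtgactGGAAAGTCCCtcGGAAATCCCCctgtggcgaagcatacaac

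The whole promoter windows of the inhibitor Nfkbia (chr6:78597023-78597322, minus strand) and the adhesion genes Vcam1 (chr2:206742734-206743033, minus strand) and Icam1 (chr8:27829595-27829894, plus strand) are shown for reading beside their levels below. In Nfkbia the match begins 31 bases before the start and lies on the opposite strand. In Vcam1 the degenerate match begins 93 bases before the start. In Icam1 neither of these motifs was found, and the capitals mark a shorter motif, GGANNTTCC, searched for after this sequence had been seen, which begins 218 bases before the start. The shorter motif overlaps the narrow one and was found in 4.09% of promoters.
Nfkbia: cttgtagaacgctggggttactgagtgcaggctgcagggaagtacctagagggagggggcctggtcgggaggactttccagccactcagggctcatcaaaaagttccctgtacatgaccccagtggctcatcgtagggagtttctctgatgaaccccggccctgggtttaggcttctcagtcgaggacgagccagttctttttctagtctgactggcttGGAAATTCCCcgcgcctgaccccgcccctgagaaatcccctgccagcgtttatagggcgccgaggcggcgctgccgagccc
Vcam1: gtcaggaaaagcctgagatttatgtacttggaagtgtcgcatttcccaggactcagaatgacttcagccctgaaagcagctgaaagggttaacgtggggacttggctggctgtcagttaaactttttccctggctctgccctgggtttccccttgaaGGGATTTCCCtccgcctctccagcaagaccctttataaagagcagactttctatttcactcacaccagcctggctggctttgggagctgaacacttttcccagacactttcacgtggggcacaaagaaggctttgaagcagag
Icam1: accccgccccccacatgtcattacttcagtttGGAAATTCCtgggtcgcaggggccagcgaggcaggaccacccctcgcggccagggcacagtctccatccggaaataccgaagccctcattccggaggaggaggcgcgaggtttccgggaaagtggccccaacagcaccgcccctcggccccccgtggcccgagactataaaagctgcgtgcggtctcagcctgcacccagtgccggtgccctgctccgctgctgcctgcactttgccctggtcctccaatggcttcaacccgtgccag

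The arrays were alike in depth. Between 26332 and 28138 probes per array were well above background, the 75th percentile of processed intensity lay between 679 and 745, and 0 spots were saturated. All 4 arrays came from 1 slide and 1 scan, and on 1 axis of that slide the groups lay at different positions, so the groups cannot be told apart from those positions. Values below are the log2 intensity minus that array's 75th percentile, so 0 is a bright probe, and levels of different probes cannot be compared. Of the OPC markers, 11 of 12 had a probe and all 11 were tested, with Olig2 at a mean of 6.35 and Sox10 at 6.47 in miR-neg. Pdgfra and Gpr17 of the same list were at means of 5.55 and 0.78. Of the mature oligodendrocyte markers, 10 of 11 were tested. Some were bright in miR-neg, with Myrf at a mean of 6.94, Cldn11 at 5.46 and Mag at 5.44. Mog, Mobp and Opalin lay below 0 there, at -0.23, -0.66 and -3.04. Whether the cells were OPCs or oligodendrocytes is not settled by these levels, since different probes cannot be compared.

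After the mimic, the outputs Icam1 and Tnfaip2 were higher and the sensor Nod1 was lower, while Vcam1 lay above its controls without passing the test and the 95% intervals of the measured subunits and Nfkbia included 0. The limma fit over all features, with a Benjamini-Hochberg adjusted p of 0.05 as the threshold, called 3 of the 8 measured members, Tnfaip2 and Icam1 higher (adjusted p = 0.0373 for both) and Nod1 lower (adjusted p = 0.0333). Tnfaip2 was kept in the fit only through its mimic arrays, and where all 4 arrays had to be above background 7 members were tested and 2 called. The same fit called 0.687% of all features, 0.38% higher and 0.307% lower, and nothing is read from the members' share, since this comparison had been seen when they were chosen. The arrays of the groups did not overlap for 5 of the 8, against 52.9% of all features. The median difference of the 8 was 0.14, beside 0.01 for all features. The 3 calls were lost when any 1 array of either group was left out, and the fit then called 0 features of 23155, with 4 of the 8 members at an unadjusted p under 0.05 in limma each time, beside 11.9% to 17.8% of all features. All 3 calls were also lost with the replicate number as a block, at a limma adjusted p of 0.0641 for Nod1 and Tnfaip2 and 0.0888 for Icam1. Without a filter on dim probes these were 0.23, 0.23 and 0.241.

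**Figure D1:**
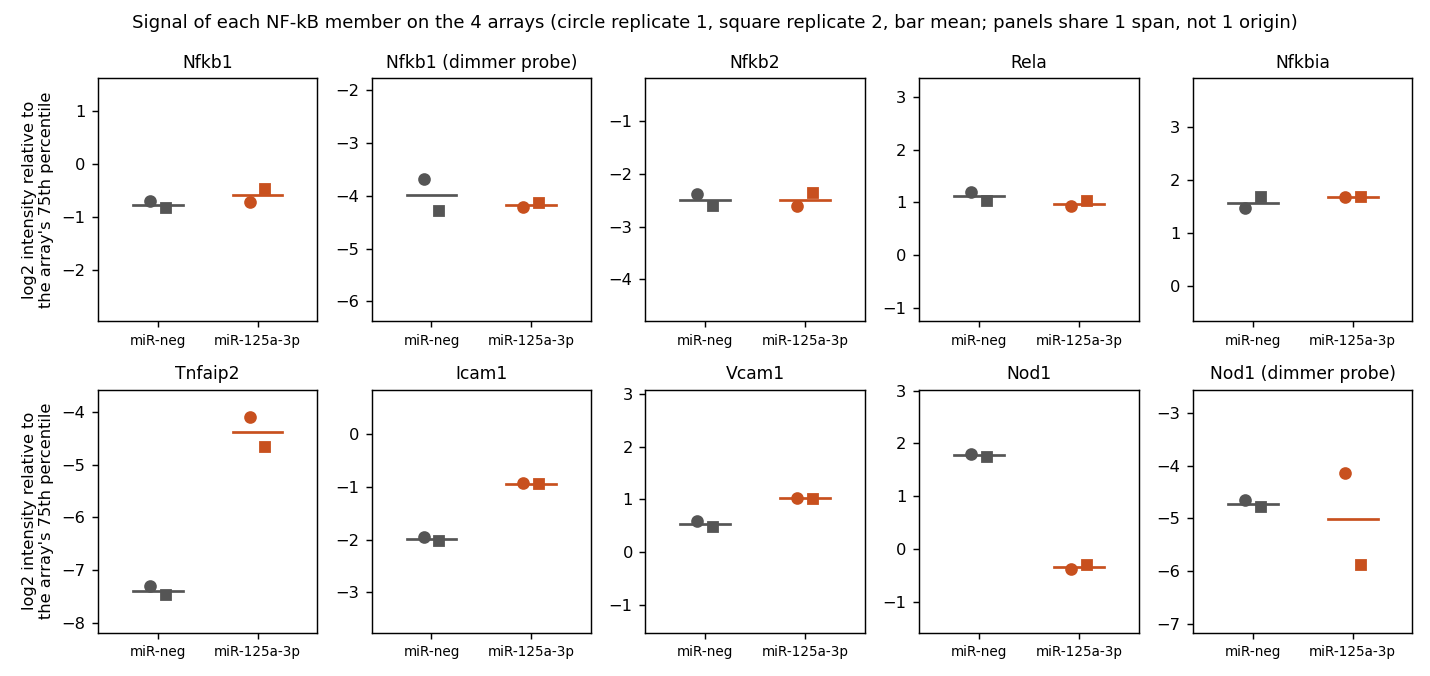
Log2 intensity relative to the array's 75th percentile (vertical axis) of each probe of the NF-kB members on the 2 miR-neg and 2 miR-125a-3p arrays, with the mean as a bar. Icam1, Vcam1, Tnfaip2 and the brighter Nod1 probe separate the groups by more than their replicates differ, while the Nfkb1, Nfkb2 and Nfkbia panels overlap.

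Among the subunits, Rela encodes p65, the subunit that carries the main activating domain of the family. Its processed intensity was 1722 and 1381 in miR-neg, against 1345 and 1455 in miR-125a-3p. On the log2 scale relative to the 75th percentile these were 1.21 and 1.02 against 0.94 and 1.02, a difference of -0.14 (SE 0.10, 95% interval -0.42 to 0.14). The groups were apart by only 0.0034, less than the spread within either group.

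Nfkb1, which encodes the p105 precursor of p50, had intensities of 459 and 380 in miR-neg and 429 and 516 in miR-125a-3p at its brighter probe. Its log2 values of -0.70 and -0.84 overlapped the -0.71 and -0.47 after the mimic, and the difference was 0.18 (SE 0.12, interval -0.15 to 0.51). At a second, dim probe the intensities were 58.2 and 34.5 in miR-neg and 37.9 and 40.9 in miR-125a-3p. The log2 difference there was -0.18, opposite in sign and also within overlapping groups.

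Nfkb2 encodes p100, the precursor of p52, and p100 itself acts as an inhibitor. Its intensities were 143 and 110 in miR-neg and 115 and 138 in miR-125a-3p, each control array close to 1 mimic array. The log2 values were -2.38 and -2.62 against -2.61 and -2.37, with a difference of 0.01 (SE 0.14, interval -0.37 to 0.39).

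Nfkbia encodes IkB alpha, the inhibitor that binds p65 and p50 and is itself a rapidly induced target of NF-kB. Its intensity was 2070 and 2163 in miR-neg and 2232 and 2284 in miR-125a-3p. The log2 values were 1.47 and 1.67 in miR-neg and 1.67 and 1.67 in miR-125a-3p, so miR-neg replicate 2 lay at the level of the mimic arrays. The difference was 0.10 (SE 0.10, interval -0.18 to 0.38). Tnfaip3, which encodes the deubiquitinase A20 and shares the narrow motif with Nfkbia, had no probe matched, so the feedback arm rests on Nfkbia alone.

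Icam1, the adhesion molecule bound by the leukocyte integrin LFA-1, was higher after the mimic on both arrays. Its intensity was 192 and 167 in miR-neg and 370 and 371 in miR-125a-3p. The log2 values of -1.96 and -2.02 became -0.93 and -0.95, a mean of -1.99 ± 0.05 against -0.94 ± 0.02 (SD, n = 2 each). The difference of 1.05 (SE 0.08, interval 0.84 to 1.26) is a 2.07-fold higher level, and the gap between the groups, 1.01, exceeded the spread within each group. With normexp background correction the difference was 0.86.

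Vcam1, the adhesion molecule bound by integrin alpha4 beta1, was also higher on both mimic arrays. Its intensity was 1118 and 945 in miR-neg and 1429 and 1444 in miR-125a-3p. In log2 values, 0.58 and 0.48 stood against 1.03 and 1.01, with no overlap. The difference was 0.49 (SE 0.08, interval 0.26 to 0.72), a 1.40-fold higher level that was not past the threshold. It did pass with normexp and with a variance trend in limma, at 0.45 and 0.49.

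Tnfaip2 is a gene first found as induced by tumour necrosis factor. It was not well above background on either miR-neg array, with intensities of 4.75 and 3.83, and was well above it on both miR-125a-3p arrays, at 41.0 and 28.2. The groups did not overlap, and the mimic arrays differed from each other by 0.57 on the log2 scale. The mean of the mimic arrays was 3.46-fold above the lowest signal well above background on each control array, or the probe's own signal if that was higher. A probe that is not well above background can read higher than that lowest signal, so 3.46 is not a strict lower bound. The plain log2 difference of 3.00 (SE 0.22) compares with a background level. With normexp, which compresses dim signals, it was 0.39, so the size of this difference rests on the background treatment and is not known.

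Nod1 encodes a cytoplasmic sensor of bacterial peptidoglycan that signals to NF-kB through the kinase RIPK2. At its brighter probe the intensity was 2587 and 2284 in miR-neg and 537 and 581 in miR-125a-3p. The log2 values fell from 1.77 ± 0.03 to -0.34 ± 0.06 (SD, n = 2 each), a difference of -2.12 (SE 0.08, interval -2.34 to -1.90), or 4.34-fold lower. The gap between the groups was 2.05, far beyond the spread within either. Among all features, 0.0734% had a lower difference, but nothing is read from this rank, since the members were chosen on these differences.

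The second probe of Nod1 was dim and did not separate the groups. Its intensities were 29.7 and 24.6 in miR-neg and 39.8 and 12.1 in miR-125a-3p, where it was well above background on 1 of 2 arrays. The log2 difference was -0.29, with the mimic arrays on both sides of the controls. When both probes were averaged, Nod1 was at -1.21 and did not pass (limma adjusted p = 0.166), whereas the adjusted p was 0.0333 at the brighter probe and ranged from 4.44e-06 to 0.23 over the alternatives. Both probes carry the same RefSeq accession, and which part of the transcript each one reads was not analysed here.

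**Figure D2:**
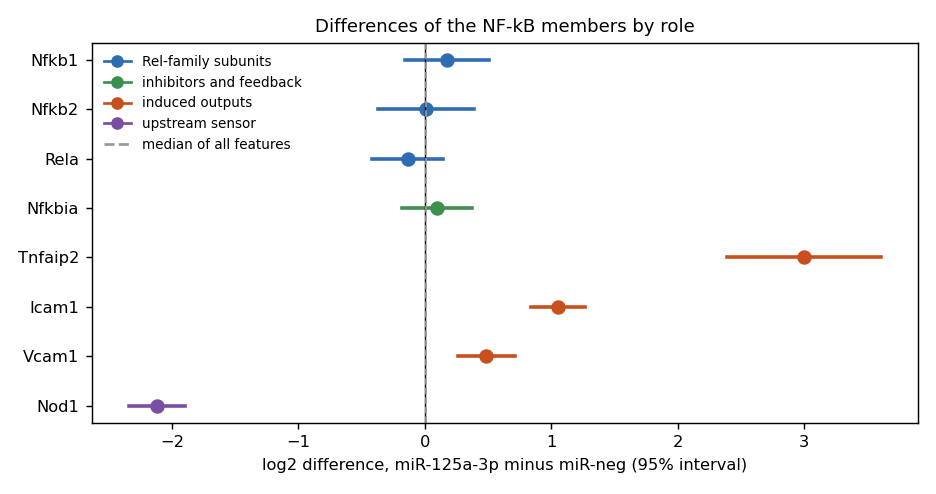
Log2 difference (horizontal axis, miR-125a-3p minus miR-neg, n = 2 arrays each) of the 8 measured members with limma's 95% interval, coloured by role. The intervals of Nfkb1, Nfkb2, Rela and Nfkbia include 0, those of Tnfaip2, Icam1 and Vcam1 lie above it and that of Nod1 below; the Tnfaip2 point is the plain difference from a level not well above background.

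The rest of the pathway was read from 7 lists of 108 genes in all, of which 97 had a probe and 73 were tested. In limma over all features, 3 of these 73 rose, Lcn2, Cxcl1 and Ccl2, and 0 fell, beside 0.687% of all features called. At an unadjusted p under 0.05 in limma there were 24 of the 73, beside 19.5% of all features. Of the 73, 41 lay above 0 and 32 below, with a median of 0.02. As for the members, the count was 0 when any 1 array of either group was left out.

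Of 3 tested genes among the other subunits and IkB proteins, 0 passed. Bcl3, an unusual IkB protein that acts in the nucleus, was at 0.44 (SE 0.08, limma adjusted p = 0.102), with values of -2.57 and -2.57 in miR-neg and -2.17 and -2.09 in miR-125a-3p. Nfkbib, IkB beta, was at 0.05 (SE 0.07). Rel, Nfkbid and Nfkbiz were matched to 0 probes.

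Of 8 tested receptor genes, 0 passed, 4 had an unadjusted p under 0.05 in limma (19.5% of all features did), and the median was 0.14. Tnfrsf1a, the main receptor for tumour necrosis factor, was at 0.34 (SE 0.09, adjusted p = 0.172), and Ltbr, the lymphotoxin beta receptor, at 0.28 (SE 0.07, adjusted p = 0.178). For both genes each mimic array was above each control array. The others at an unadjusted p under 0.05 in limma, Il1rap and Tlr2, were named after their values were seen. Il1rap was lower, at -0.41 (SE 0.12) and at -0.52 on its second probe, and Tlr2 was at 0.43 (SE 0.13). The receptor genes Il1r1 and Tlr4 were not well above background on any of the 4 arrays.

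Of 21 tested genes for adaptors and kinases, 0 passed, 15 lay below 0 and the median was -0.10. Ikbkg, which encodes NEMO, the regulatory subunit of the IkB kinase complex, had log2 values of 1.82 and 1.81 in miR-neg and 1.20 and 1.11 in miR-125a-3p. The difference was -0.66 (SE 0.08, limma adjusted p = 0.0667), and a second probe, well above background on 3 arrays, was at -0.49. This gene passed with normexp, with a variance trend and where all 4 arrays had to be above background. With the mean of its probes it was at -0.58 and did not pass (limma adjusted p = 0.36). The limma adjusted p was 0.28 without a filter on dim probes and 0.135 with the replicate number as a block. Chuk, the kinase IKK alpha, was at -0.23 (SE 0.08, adjusted p = 0.24) and its second probe at -0.37. Ripk2, named for its role beside NOD1 after its values were seen, was at -0.33 (SE 0.13, adjusted p = 0.28).

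Of 14 tested negative regulators, 0 passed and 3 had an unadjusted p under 0.05 in limma, near the 19.5% of all features. The related genes Nkiras1 and Nkiras2, which encode Ras-like proteins that bind IkB, lay on opposite sides of 0, at -0.52 (SE 0.11) and 0.44 (SE 0.12), with adjusted p-values of 0.133 and 0.192. The second probe of Nkiras1, well above background on 4 arrays, was at -0.48. Of the 14, 9 lay above 0 and 5 below, with a median of 0.03. The ubiquitin regulators Cyld, Otulin and Tnip1, named after their values were seen, were among those below, at -0.06, -0.18 and -0.10. The second probe of Cyld was at 0.06, and Tax1bp1, Itch and Tollip of the same list were at 0.12, 0.11 and 0.11.

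Among survival and enzyme outputs, 1 of 9 tested genes rose and 8 did not pass. Over all 16 genes with a probe, dim ones included, 6 lay above 0 and 10 below, with a median of -0.13. Lcn2, a siderophore-binding protein, rose by 2.15 (SE 0.13, limma adjusted p = 0.0373), from a mean of -3.08 ± 0.17 in miR-neg to -0.92 ± 0.12 in miR-125a-3p (SD, n = 2 each). Irf1, an interferon regulatory transcription factor, was at 0.62 (SE 0.08, adjusted p = 0.0667), and C3, the central complement component, at 1.67 (SE 0.23, adjusted p = 0.0758). Both passed with normexp, with a variance trend and where all 4 arrays had to be above background, and with normexp C3 was at 0.57. Ptgs2, Nos2, Plau, Cfb and Bcl2a1 were not well above background on any array.

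Among cytokine and chemokine outputs, 2 of 10 tested genes rose and 8 did not pass. Over all 14 genes with a probe, dim ones included, 11 lay above 0 and 3 below, with a median of 0.45. The neutrophil attractant gene Cxcl1 rose by 2.39 (SE 0.09, limma adjusted p = 0.0333), from -3.04 and -2.95 to -0.54 and -0.66. The monocyte attractant gene Ccl2 rose by 1.94 (SE 0.12, adjusted p = 0.0373), from -3.11 and -2.86 to -1.01 and -1.08. The chemokine genes Ccl7 and Cxcl2 were at 1.69 (SE 0.31, adjusted p = 0.107) and 0.84 (SE 0.19, adjusted p = 0.146). With normexp both were smaller and passed, Ccl7 at 0.57 (adjusted p = 0.00369) and Cxcl2 at 0.34 (adjusted p = 0.0473), and Ccl7 also passed with a variance trend. The classic inducers Tnf and Il1b, and also Il6 and Csf2, were not well above background on any of the 4 arrays.

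**Figure D3:**
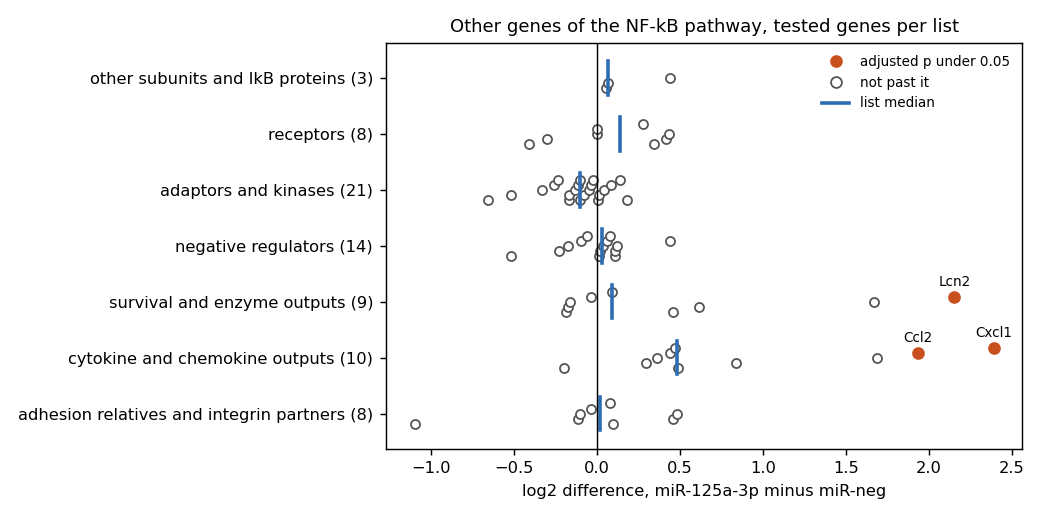
Log2 difference (horizontal axis, miR-125a-3p minus miR-neg) of each tested gene in 7 lists of other NF-kB pathway genes, with the number tested in brackets, the list median as a blue bar and genes past an adjusted p of 0.05 filled. The filled genes, Lcn2, Cxcl1 and Ccl2, lie in the output lists at 2.15, 2.39 and 1.94, while the adaptors and kinases lie around a median of -0.10.

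Of 8 tested adhesion relatives and integrin partners of Icam1 and Vcam1, 0 passed. Over all 16 genes of that list with a probe, dim ones included, 5 lay above 0 and 11 below, with a median of -0.11. Itga4, the alpha4 chain of the integrin that binds VCAM1, was at -1.10 (SE 0.24, limma adjusted p = 0.131), from -4.41 and -3.76 to -5.21 and -5.16, and its partner Itgb1, chosen after its value was seen, was at -0.11. The Itga4 probe was dim, and its difference was -0.36 with normexp, where it passed (adjusted p = 0.0465), and -0.78 or -1.42 when 1 miR-neg array was left out. Icam5, a relative of Icam1 found on neurons, was at 0.48 (SE 0.09, adjusted p = 0.116). The chains of LFA-1, Itgal and Itgb2, and the genes Icam2, Sele, Selp, Pecam1 and F11r were not well above background on any array.

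Icam1, Vcam1, Tnfaip2 and the chemokine genes are also expressed by astrocytes, microglia and cells of vessels and meninges, so markers of those cells were read on the same arrays. The filter kept some of these markers only through the mimic arrays (C1qc and Cd14 of the microglial list, Pdgfrb of the fibroblast and mural lists), so counts and medians are given over all genes with a probe, dim ones included. Summed signals are in units of the array's 75th percentile over the tested genes, and since a sum is set mostly by its brightest probe it is also given without that gene.

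Of the microglial and macrophage markers, 11 of 15 lay above 0 (median 0.53), and C1qa rose by 1.44 (SE 0.10, limma adjusted p = 0.0373). C1qa was dim in miR-neg, at a mean of -4.63. Aif1, Fcer1g, Tyrobp and C1qb, named after their values were seen, were at 1.56, 1.40, 1.36 and 1.27 and did not pass. Their miR-neg means were -3.84, -4.06, -3.38 and -2.59, and the second probe of Aif1 was at 2.07. The 4 markers below 0 included the brightest, Cx3cr1, at -0.06, with Cd68 at -0.28 and P2ry12 at -0.00075. Itgam was at 0.09, and its second probe at -1.85. Their summed signal was 4.29 to 4.86 in miR-neg and 4.92 to 5.49 in miR-125a-3p, and without Cx3cr1 it was 2.41 to 2.82 against 3.14 to 3.51. Ptprc, a defining marker of leukocytes, was not well above background on any array. Of the astrocyte markers, 10 of 12 lay above 0 (median 0.21), and Aldh1l1 rose by 1.89 (SE 0.09, limma adjusted p = 0.0333). Aqp4, Gja1 and Gfap, named after their values were seen, were at 1.53, 1.25 and 0.66 and did not pass. The 2 below 0 were Glul at -0.46 and Fgfr3 at -0.14, while Slc1a2, S100b and Sox9 were at 0.05, 0.04 and 0.08. Their summed signal was 187 to 199 against 209 to 212, of which Aldoc made up 83.0%, and without it 30.6 to 32.4 against 36.9 to 37.6. Gjb6 was not well above background on any array.

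Of the fibroblast and meningeal markers, 9 of 10 lay above 0 (median 0.60) and 0 of the 6 tested passed. Col1a1, Col3a1 and Fn1, named after their values were seen, were at 1.42, 1.32 and 1.17, with miR-neg means of -3.72, -5.21 and -3.27. The summed signal of the tested genes was 0.448 to 0.464 against 0.815 to 1.00, and without Col1a2 it was 0.242 to 0.262 against 0.516 to 0.659. Dcn, Lum, Thy1 and Twist1 of that list were not well above background on any array. Of the endothelial and mural markers, 6 of 12 lay above 0 (median -0.00) and 0 of the 7 tested passed. Their summed signal was 3.32 to 3.76 against 3.89 to 4.03, but Vwf made up 82.5% of it, and without Vwf the groups overlapped, at 0.637 to 0.680 against 0.649 to 0.660. Pecam1 and Kcnj8 were not well above background.

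The part of these cell types in the differences of Icam1, Vcam1 and Tnfaip2 was not tested, and in bulk RNA more cells of a type and more RNA per cell cannot be told apart. Of the neuron markers, 9 of 12 lay above 0 (median 0.09) and 0 passed, with a summed signal of 23.8 to 24.3 against 27.5 to 27.8, and of 14.3 to 15.4 against 16.9 to 16.9 without Dcx. The median was 0.11 for OPC markers and -0.64 for mature oligodendrocyte markers, with Aspa lower by the test at -1.55 (SE 0.12, limma adjusted p = 0.0401).

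**Figure D4:**
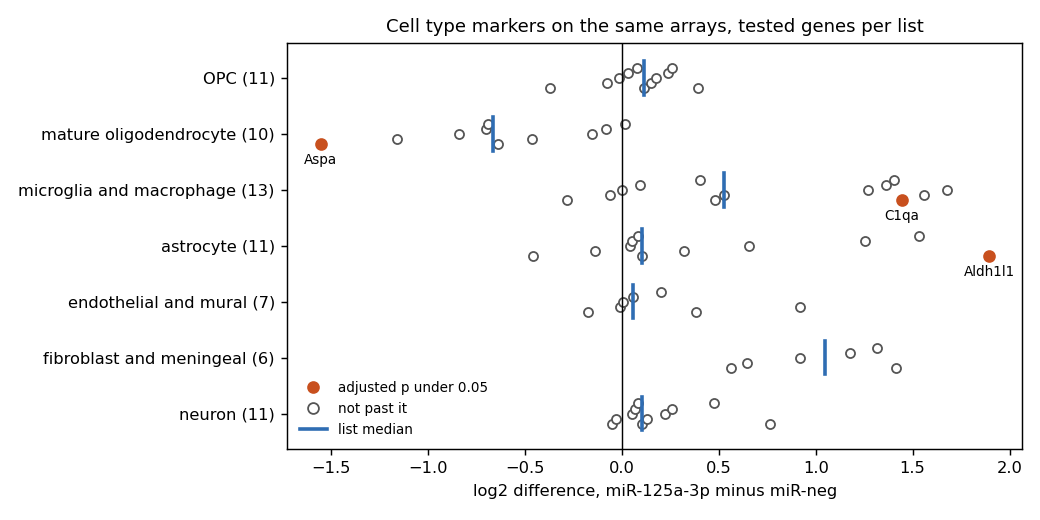
Log2 difference (horizontal axis, miR-125a-3p minus miR-neg) of each tested cell type marker, with the number tested in brackets, the list median as a blue bar and genes past an adjusted p of 0.05 filled. The tested markers leave out dim genes, and C1qc, Cd14 and Pdgfrb were kept only through the mimic arrays; the filled genes are C1qa, Aldh1l1 and Aspa at 1.44, 1.89 and -1.55.

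Of the 13 alternative settings, 4 change the genes tested or the variance and leave each difference as it is, so a range describes the others. With the reported value included, Icam1 lay between 0.86 and 1.08 and Vcam1 between 0.43 and 0.54. Rela lay between -0.23 and -0.04, while the signs of Nfkb1 (-0.00 to 0.29), Nfkb2 (-0.11 to 0.13) and Nfkbia (-0.00 to 0.20) turned in at least 1 setting. Nod1 ranged from -2.16 to -1.21 with the mean of probes as the upper end, and Tnfaip2, which was measured in 12 of the settings, from 0.39 with normexp to 3.28.

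**Figure D5:**
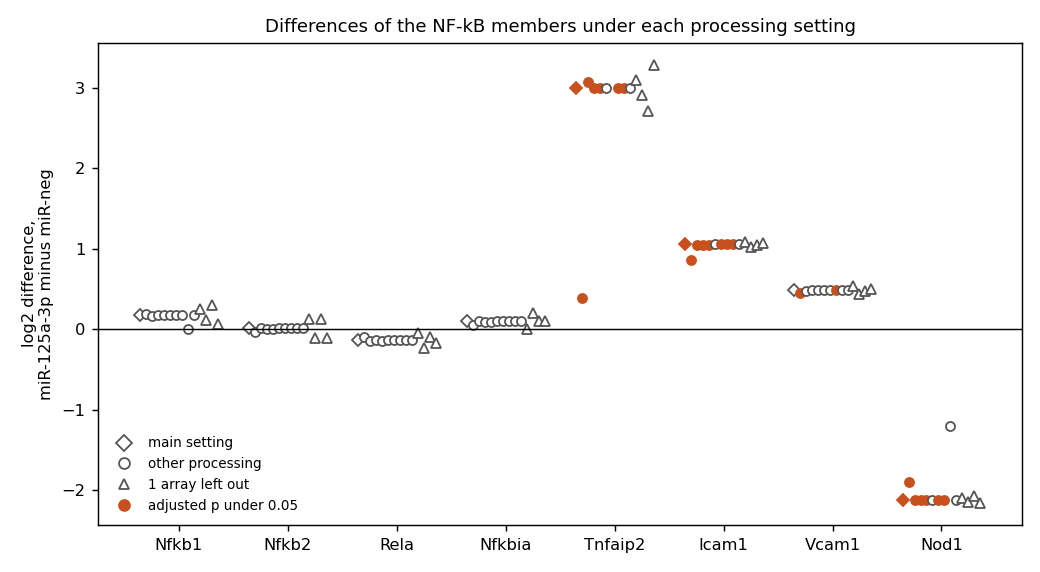
Log2 difference of each measured member (vertical axis, miR-125a-3p minus miR-neg) in the main setting (diamond), under other processing (circles) and with 1 array left out (triangles), filled where the limma adjusted p was under 0.05. The triangles of Icam1, Vcam1 and Nod1 lie close to the main value but are open, and the isolated points are Tnfaip2 with normexp at 0.39 and Nod1 with its probes averaged at -1.21.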

How the data were processed

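Per the file headers, the authors made the intensities used here with Agilent Feature Extraction 10.7.3.1, which subtracts background and detrends within an array. The deposited table of log2 values had column medians of -4.07 (miR-neg replicate 1), -4.15 (miR-neg replicate 2), -4.08 (miR-125a-3p replicate 1) and -4.14 (miR-125a-3p replicate 2). Scale and direction matched the scanner values, and it served as an alternative. Control spots and outlier spots were left out and spots of a probe averaged. Of 45598 probes, 65 lacked an unflagged spot on some array. RefSeq accessions named 21109 probes (46.3%) through the GRCr8 table. Probes well above background on at least 2 arrays were kept, and the probe with the highest mean stood for its gene, which left 23155 features, 11676 with a symbol. The test was limma 3.58.1 under R 4.3.3 (lmFit, eBayes, two-sided, Benjamini-Hochberg over all features). The fit was tested on simulated data with shifts larger than any member's difference, which does not show how it performs at the sizes reported. With 2 samples a group, the smallest p of an exact permutation test is 0.333. Members and lists were chosen with earlier results of these data known. From each pathway list the text names genes past the threshold and the 2 others of smallest p. Normexp was run on median spot signals, since the files hold no mean spot signal; it and the shorter kappaB motif were added after seeing the data. 1 gene of a marker list is not reported here.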

Additional observations from a re-analysis of the deposited data

How the results depend on the processing

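The count of 159 features past the threshold (88 higher, 71 lower) became 1601 with normexp on median spot signals, 83 with quantile normalization (37 higher, 46 lower), 613 where all 4 arrays had to be above background, 2048 with a variance trend and 984 at an adjusted p of 0.1. The count of other pathway genes, 3, became 16 with normexp, 15 with a variance trend, 6 where all 4 arrays had to be above background and 6 at an adjusted p of 0.1. Without a filter on dim probes, 0 features, 0 members and 0 other pathway genes passed in limma, with 3956, 4 and 20 at an unadjusted p under 0.05. With the replicate number as a block, which equals a block on the slide axis shared by the groups, the counts were again 0, 0 and 0, with 3968, 4 and 22 at an unadjusted p under 0.05 in limma. Deviations of same-numbered arrays correlated at 0.0539, which with 2 arrays per group does not settle whether they are pairs. With 1 array left out, the counts ranged from 0 to 0 for features, members and other pathway genes. The count of 3 members lay between 2 and 4 in the other settings run. Signs turned for 3 members: Nfkb1 was at -0.0033 with the mean of probes, Nfkb2 at -0.029 with normexp and from -0.11 to 0.13 with 1 array left out, and Nfkbia from -0.0012 to 0.20 with 1 array left out. For none of these shifts was the cause tested. For probes near background, such as those of Tnfaip2, signal over background limits the size that can be given.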
